A study of Mus musculus with 386 samples.

Results

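The mouse mitochondrial genome is a small circular DNA whose genes all carry the prefix mt- in the count table. All 37 rows with that prefix, of 54658 gene rows, are described here: 13 protein-coding (mRNA) rows, 2 ribosomal RNA rows (mt-Rnr1 and mt-Rnr2) and 22 transfer RNA rows. The rule used only the gene symbols and no measured value. Germ cells of female mice were hand-picked after the ovaries had been dissociated, once before birth, on embryonic day 17.5 (22 libraries, called E17.5), and on days 2.5 and 6.5 after birth, called P2.5 and P6.5. There were 386 libraries, with 47 at P6.5 and the remainder at P2.5. Each cell gave a Smart-seq2 library, a full-length method primed on poly(A) tails, and the RNA is labelled as poly(A) RNA. No strain, genotype, treatment or animal is named in the labels, so all groups are taken as given by stage alone, each stage counts as 1 sample, and no p-value is given anywhere. The cells of a stage show its spread but are not replicates, and the intervals below cover counting error only.

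As background, mitochondrial DNA is transcribed from both strands into long precursors. Most mRNAs and both rRNAs are flanked by tRNAs, and excision of those tRNAs releases them. The light-strand precursor carries mt-Nd6 and a minority of the tRNAs, and the heavy-strand precursor carries the other genes. Both rRNAs receive short A tails, and most mitochondrial mRNAs receive longer ones, so a poly(A)-primed method can copy both classes, whereas mature tRNAs end in CCA. The 13 proteins are subunits of respiratory complexes I, III, IV and V, whose other subunits come from the nucleus. Oocytes carry a very large maternal pool of mitochondria, which is built up as the oocyte grows.

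Some of these genes also exist as nearly perfect nuclear copies, and this sets how far their counts can be read. On chromosome 1 of GRCm38 (mm10; GENCODE M21), a stretch of 4663 bases (chr1:24611535-24616197) carries 7 annotated pseudogenes that match mitochondrial genes. Of these, 5 cover at least 95% of their mitochondrial gene at no less than 99% identity: Gm28661 (mt-Co2), Gm10925 (mt-Atp6), Gm28437 (mt-Co3), Gm28438 (mt-Nd3) and Gm10222 (mt-Nd4l). The gene mt-Atp8 lies between copied genes, and the stretch also holds the first 63.6% of mt-Nd4 without a mismatch and the last 31.3% of mt-Co1. The pairs below are shown because they hold the only mismatches found in the aligned blocks of these 7 pseudogenes. Capitals mark the base that differs, and each copy is written on the strand of its own gene.
mt-Co1, chrM:6390-6423, plus strand: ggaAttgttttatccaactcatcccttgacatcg
Gm29216, chr1:24616155-24616188, minus strand: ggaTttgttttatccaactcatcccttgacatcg
mt-Nd3, chrM:9459-9491, plus strand: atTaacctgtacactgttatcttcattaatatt
Gm28438, chr1:24613087-24613119, minus strand: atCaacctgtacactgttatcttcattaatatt
Counted from 1 at the 5′ end of the mitochondrial gene, the differences are A1066T in mt-Co1 and T3C in mt-Nd3. The aligned block is 483 bases long for mt-Co1 and 345 bases for mt-Nd3, so nearly all of it is identical. Copies outside chromosome 1 are less alike, for example Gm13340 on chromosome 2, which matches all of mt-Co1 at 97.61%, and Gm11410 on chromosome 4, which matches mt-Cytb at 92.91%.

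The tRNA rows are short, and the 2 with most counts are printed here because the tRNA results rest on them. Both are encoded on the light-strand side (minus strand), mt-Tp separated from mt-Cytb by mt-Tt, and mt-Tq between mt-Ti and mt-Tm.
mt-Tp, chrM:15356-15422, minus strand: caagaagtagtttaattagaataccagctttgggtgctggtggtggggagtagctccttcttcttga
mt-Tq, chrM:3772-3842, minus strand: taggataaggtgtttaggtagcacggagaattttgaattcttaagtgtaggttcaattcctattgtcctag
Of the 22 tRNA rows, 8 lie on the minus strand.

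Several properties of the libraries bear on all that follows. The median library held 6394864 gene counts at E17.5 (range 1016746 to 16125066). The P2.5 median was 6181614 (range 435560 to 23982709), and the P6.5 median was 8596803 (range 5714357 to 15799302). Among P2.5 libraries, 24 pairs differed by little more than sampling noise (median chi-square per gene 0.686 to 1.03, with the next pair at 2.31). Each pair was summed as 1 cell. That left 362 cells in all. The 6 germ cell markers (Ddx4, Dazl, Dppa3, Mael, Taf4b and Sycp3) were all detected at each stage and summed to 2833, 4019 and 5175 CPM (counts per 1000000 gene counts). At E17.5 their sum was low in libraries 8, 10, 15 and 16, at 487.9, 300.1, 246.6 and 705.2 CPM. Markers of other cell types were also higher in the E17.5 sum, so the class ratios, the row ratios and the nuclear list were also computed without those 4 libraries. All 12 granulosa markers were detected, and they summed to 263.3, 20.02 and 13.45 CPM across the stages (range over cells 1.718 to 1933, 0 to 1274 and 0.35 to 217.4). The 5 erythroid markers were all detected and summed to 1593, 38.67 and 1.936 CPM (214.3 to 5863, 0 to 2561 and 0 to 49.62). The 6 mast cell markers summed to 8849, 0.8165 and 0.2615 CPM (0 to 118082, 0 to 27.67 and 0 to 6.996), with Mcpt4 at 0 at P2.5 and Tpsb2, Cma1, Prss34 and Mcpt4 at 0 at P6.5. The stroma, endothelium and immune lists summed to 53.92, 28 and 51.06 CPM at E17.5, against 23.08, 15.91 and 11.14 at P2.5. Their cell medians were lower at E17.5 (7.807, 5.748 and 0.07255 CPM) than at P2.5 (10.74, 9.416 and 7.733). Some single markers were also higher at P2.5, among them Col1a1 (0.977 to 4.85 CPM), Dcn (0.8141 to 8.641), C1qb (0 to 10.61) and granulosa Nr5a2 (0.01416 to 0.4214). The part of these other cells in the mitochondrial values was not tested beyond leaving out the 4 libraries.

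As a share of all gene counts, the 37 rows together were highest at E17.5 and lowest at P6.5. The summed libraries gave 3.961% at E17.5, 2.84% at P2.5 and 1.837% at P6.5. Per count on the added spike-in RNA, the order was the opposite, at 3.307, 12.55 and 61.98 mitochondrial counts. The spike-in is a fixed mix of synthetic RNAs added to each lysate, so a count relative to it tracks the amount of RNA captured from the cell, provided that equal amounts were added, which the labels do not state. All gene counts per spike-in count were 83.5, 442.1 and 3374, a 5.295-fold step and then a 7.632-fold step. Thus a class can be a smaller share of the RNA and still be higher per spike-in count, and both scales are given.

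The mRNA rows made up a similar share at E17.5 and P2.5 and a smaller one at P6.5. Summed over their 13 rows, they were at 16560 CPM at E17.5 (cells 9706 to 67676, median 16863). At P2.5 the sum was 17228 CPM (7238 to 46196, median 16739), and at P6.5 it was 9410 CPM (3290 to 14732, median 9505). The P2.5 and E17.5 cells overlapped almost wholly, whereas every P6.5 cell lay below the P2.5 median. The log2 ratio of P2.5 over E17.5 was 0.057 (95% counting interval 0.055 to 0.059), and it changed sign when the median over cells was used (-0.01). For P6.5 over P2.5 it was -0.873 (-0.874 to -0.871), a 1.831-fold lower share that kept its direction in TMM scaling (-0.64) and in median-of-ratios scaling (-0.54), but not per spike-in count. On that scale the mRNA rows were at 1.383, 7.616 and 31.75, so that P2.5 was 5.508-fold above E17.5 and P6.5 was 4.168-fold above P2.5. There 96.6% of P2.5 cells exceeded the highest E17.5 cell.

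In CPM, the rRNA rows differed more between E17.5 and P2.5 than the other classes. mt-Rnr1 encodes the 12S rRNA of the small mitochondrial ribosomal subunit, and mt-Rnr2 the 16S rRNA of the large one. Together they were at 23011 CPM at E17.5 (cells 15197 to 73781, median 23990), 11135 CPM at P2.5 (2033 to 42873, median 10757) and 8950 CPM at P6.5 (3346 to 15098, median 9091). Of the P2.5 cells, 81.9% lay below every E17.5 cell. The log2 ratio of P2.5 over E17.5 was -1.047 (counting interval -1.049 to -1.046), that is 2.067-fold lower in P2.5, and it was -1.02 without the 4 E17.5 libraries low in germ cell markers. It was smaller in TMM scaling (-0.68) and median-of-ratios scaling (-0.82), and of the opposite sign per spike-in count (1.36). For P6.5 over P2.5 the log2 ratio was -0.32, and it was 0.02 in median-of-ratios scaling and 2.62 per spike-in count, so no direction held over the scalings. Per spike-in count the rRNA rows were at 1.921, 4.923 and 30.2.

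The tRNA rows held very little of the RNA. Together they were at 40.58, 34.71 and 11.06 CPM, and per spike-in count at 0.003388, 0.01535 and 0.03732. The cell medians were 36.55, 32.86 and 10.26 CPM. Between P2.5 and P6.5 the log2 ratio was -1.65 on the CPM scale and 1.28 per spike-in count. Of the tRNA counts of all libraries, 95.4% lay on mt-Tp alone.

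**Figure D1:**
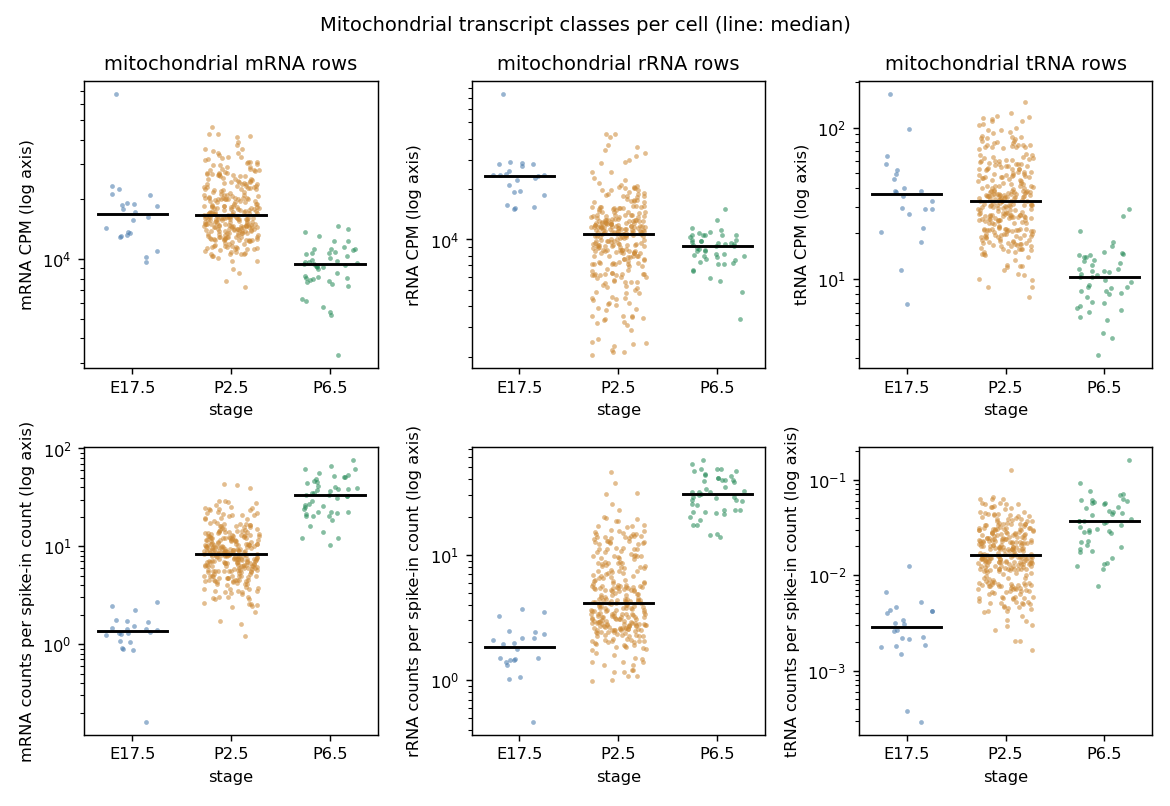
Each point is a cell and each line the median of its stage, with the 3 classes in columns, CPM above and counts per spike-in count below, all on log axes. The rRNA rows of most P2.5 cells lie below all E17.5 cells in CPM (81.9%), while in the lower row every class has its highest median at P6.5.

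Within cells, the ratio of rRNA to mRNA counts does not depend on how libraries are scaled. At E17.5 it was 1.39 in the sum, from 1.004 to 2.898 over cells, and all 22 cells were above 1. At P2.5 it was 0.6463, from 0.1178 to 1.76, with 10.6% of cells above 1 and 89.8% below every E17.5 cell. At P6.5 it was 0.9512, from 0.3014 to 2.839, with 21 of 47 cells above 1. The P2.5 value was thus the lowest of the stage sums, and the ranges of P2.5 and P6.5 cells overlapped. The order was the same in the deposited FPKM (fragments per kilobase of transcript, scaled to the fragments of the library), at 0.544, 0.187 and 0.301, and E17.5 was at 1.34 when libraries 8, 10, 15 and 16 were left out. The FPKM ratios lie below 1, so the position of cells above or below 1 is given for counts only. At E17.5 the 6 rows inside the copied stretch made up 0.681% of mRNA counts but 35.7% of mRNA FPKM.

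The P2.5 ratio was not uniform over the deposited table, and this bears on every rRNA value of that stage. In the count table the P2.5 libraries come first, in an order that does not follow the numbers in their titles. Cut into 16 blocks of 20 consecutive columns (17 in the last), the median rRNA to mRNA ratio per block ran from 0.265 to 1.1, a 4.15-fold range. Differences between blocks made up 45.4% of the variance of the log2 ratio over libraries. Blocks 13, 14 and 15 had the lowest medians (0.2998, 0.2652 and 0.3169), and none of their libraries reached 1. In block 2 the median was 1.101, and 11 of 20 libraries were above 1. The blocks count libraries as deposited, with near-identical pairs not summed, and both libraries of several pairs lie in block 2. Block medians, counts above 1 and variance shares therefore include some cells by both of their libraries. The rRNA rows differed more between blocks than the mRNA rows, with block medians of 5608 to 15704 CPM against 12518 to 21434 CPM. The number of gene rows with a count also moved with the blocks (median 13038 to 18264, 57.1% of its variance between blocks), as did gene counts per spike-in count (highest block median 1079, 3.54-fold above the lowest, 28.7%). The labels do not say what the column order stands for, and its part in the ratio was not tested.

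With each block taken alone, rRNA rows stayed below E17.5 in all 16 (log2 ratio -2.2 to -0.415). For P6.5 over P2.5, the mRNA ratio (-1.15 to -0.656) and the tRNA ratio (-2.08 to -0.898) also stayed below 0 in all 16. The other 3 comparisons did not keep their direction over the blocks. For P6.5 over P2.5 the rRNA ratio ran from -0.948 to 0.836. For P2.5 over E17.5 the mRNA ratio ran from -0.16 to 0.331 and the tRNA ratio from -0.977 to 0.203.

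**Figure D2:**
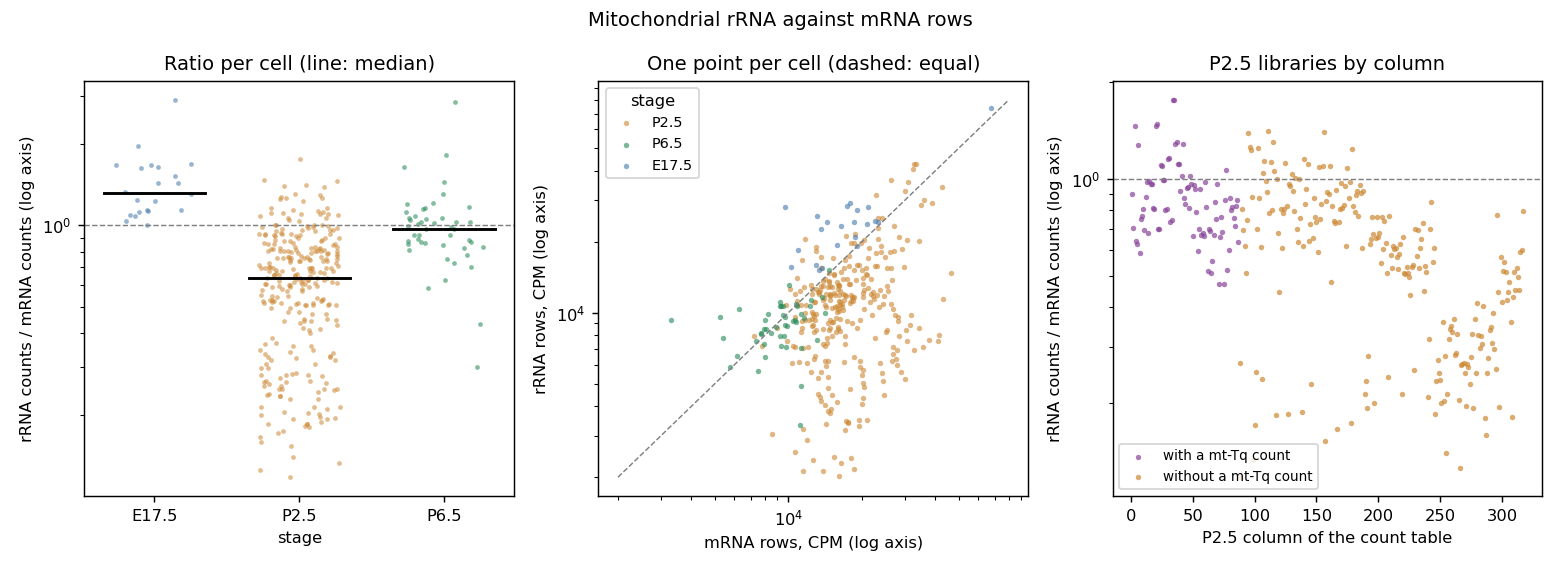
Left, the ratio of mitochondrial rRNA to mRNA counts per cell by stage, on a log axis, with the median as a line; middle, the CPM of both classes per cell on log axes; right, the ratio of each P2.5 library by its column in the count table. All 22 E17.5 cells lie above 1, and P2.5 libraries in blocks 13 to 15 of 20 columns sit lowest, with block medians of 0.2652 to 0.3169.

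By row, few mitochondrial genes passed a 2-fold difference in CPM between E17.5 and P2.5. Between P2.5 and P6.5 a larger share of them was 2-fold lower than of all genes. A row counted as measured where one of the compared stage sums reached 1 CPM and 3 or more cells had a count, and 0.5 CPM was added before the ratio. On these terms 15 of the 37 rows were measured: 11 mRNA rows, both rRNA rows, mt-Tp and mt-Tq. Between E17.5 and P2.5, 2 of 15 were at least 2-fold higher (mt-Nd6, and mt-Tq, which was seen in only a part of the P2.5 libraries, as described below), beside 22.6% of all 17421 measured genes, and 1 was at least 2-fold lower (mt-Rnr2), beside 32.4%. In TMM scaling none of the 15 was 2-fold lower in this step, mt-Rnr2 included, and mt-Nd3 was 2-fold higher beside the other two. Without the 4 E17.5 libraries low in germ cell markers the counts were again 2 and 1. The median log2 ratio of the 15 rows was 0.11, and that of the 11 mRNA rows 0.25, against -0.26 over all measured genes. TMM scaling would shift every gene by 0.36 and median-of-ratios scaling by 0.22. Between P2.5 and P6.5, 0 of 15 were at least 2-fold higher, beside 6.90% of 14643 measured genes, and 5 were at least 2-fold lower (mt-Nd1, mt-Co2, mt-Co3, mt-Atp6 and mt-Tp), beside 9.30%. In TMM scaling 3 of those 5 were 2-fold lower (mt-Co2, mt-Co3 and mt-Tp). Of the 5, mt-Co2, mt-Co3 and mt-Atp6 lie inside the copied stretch. Of the 7 mRNA rows not wholly inside it, 1 was 2-fold lower in CPM (mt-Nd1). In FPKM, mt-Cytb (-1.03) and mt-Co1 (-1.07) also passed 2-fold, and mt-Co3 (-0.94) did not. The median of the 11 mRNA rows was -0.94, against -0.18 over all measured genes, with shifts of 0.24 (TMM) and 0.34 (median of ratios). Per spike-in count all 15 were at least 2-fold higher in both steps, beside 75.5% and 99.1% of measured genes, and none was 2-fold lower, beside 4.16% and 0.0137%. Most measured genes were thus higher on that scale.

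Leaving out E17.5 libraries 8, 10, 15 and 16 turned the direction of no measured mRNA or rRNA row, nor of mt-Tp, in P2.5 over E17.5. With no CPM added, the log2 ratio of mt-Nd1 went from 0.09 to 0.31, that of mt-Nd6 from 2.03 to 2.28, that of mt-Co1 from -0.30 to -0.43 and that of mt-Nd4 from 0.11 to 0.06. The other measured rows of these classes moved less than mt-Co1, among them mt-Rnr2 (-1.06 to -1.04), mt-Rnr1 (-0.80 to -0.77), mt-Cytb (0.45 to 0.44) and mt-Tp (-0.28 to -0.23).

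**Figure D3:**
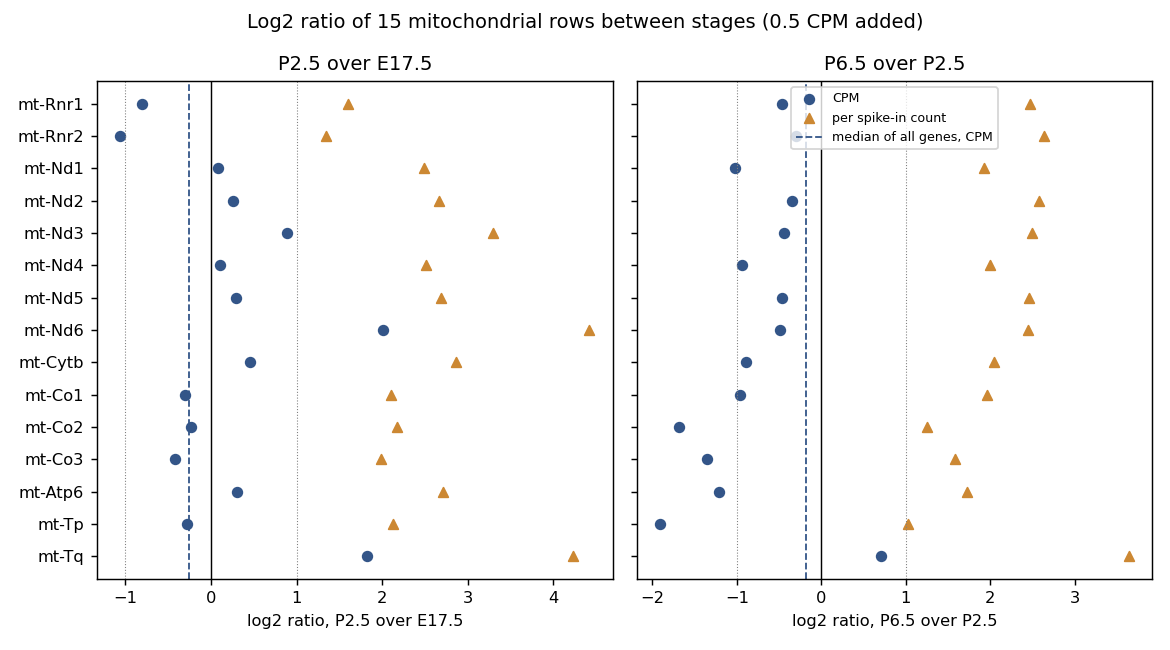
Log2 ratios of the 15 measured rows, P2.5 over E17.5 on the left and P6.5 over P2.5 on the right, in CPM (circles) and per spike-in count (triangles), with 0.5 CPM added. Dotted lines mark 2-fold and the dashed line the median of all measured genes in CPM (-0.26 and -0.18); on the left mt-Rnr2 lies at -1.06 and mt-Nd6 at 2.01.

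Complex I, the NADH dehydrogenase through which electrons enter the chain, has 7 mitochondrial subunits. Among the 6 other than mt-Nd4l, the core subunit gene mt-Nd1 was the highest per length. It was at 2748 CPM at E17.5 (cells 802.3 to 9599, median 2844), 2918 CPM at P2.5 (796.5 to 10187, median 2916) and 1443 CPM at P6.5 (647.7 to 2865, median 1332). All P6.5 cells lay below the P2.5 median, and the log2 ratio was 0.09 for the first step and -1.02 for the second. mt-Nd2 was at 299.7, 357.4 and 280.4 CPM, mt-Nd4 at 995.2, 1072 and 557.7 CPM, and mt-Nd5 at 1439, 1758 and 1272 CPM. The P6.5 over P2.5 log2 ratio of mt-Nd4 was -0.94, that of mt-Nd5 -0.47 and that of mt-Nd2 -0.35, so the complex I rows did not share one ratio. mt-Nd3, inside the copied stretch, was at 52.44, 97.54 and 71.55 CPM, with 0.89 in the first step.

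mt-Nd6, the mRNA row on the minus strand, had the largest ratio of the measured mRNA rows between E17.5 and P2.5. It was at 25.42 CPM at E17.5 (8.514 to 66.39, median 22.85), 104.1 CPM at P2.5 (25.23 to 390.8, median 93.8) and 74.06 CPM at P6.5 (29.63 to 150.1, median 70.45). The highest E17.5 cell was exceeded by 77.1% of P2.5 cells. The log2 ratio was 2.03 (counting interval 1.99 to 2.08), or 4.097-fold, and -0.49 for the next step. In the deposited FPKM the first ratio was 1.35. Relative to mt-Nd5, which lies opposite and overlaps its end on the other strand, it went from 0.01767 at E17.5 to 0.05923 at P2.5 and 0.05823 at P6.5, and this ratio also differed between P2.5 column blocks (medians 0.0332 to 0.0873). The lowest block median was above the E17.5 median of 0.01635. The sources used here do not state whether reads were assigned by strand, so reads of mt-Nd6 and of the opposite strand cannot be told apart.

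Complex III has 1 mitochondrial subunit, cytochrome b, encoded by mt-Cytb. It was at 3567 CPM at E17.5 (1473 to 18199, median 3661), 4884 CPM at P2.5 (1831 to 19344, median 4632) and 2634 CPM at P6.5 (777.8 to 3880, median 2613). The E17.5 and P2.5 cells overlapped, and the log2 ratios were 0.45 and -0.89.

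Complex IV, cytochrome c oxidase, takes its 3 catalytic-core subunits from mitochondrial DNA. mt-Co1 was the mRNA row with most counts at each stage, at 7374 CPM at E17.5 (4225 to 29222, median 7131), 5985 CPM at P2.5 (2786 to 15272, median 5746) and 3058 CPM at P6.5 (899.8 to 5056, median 2999). Its log2 ratios were -0.30 and -0.97. Relative to mt-Cytb it went from 2.067 at E17.5 to 1.225 at P2.5 and 1.161 at P6.5 in the sums, with 65.5% of P2.5 cells and 93.6% of P6.5 cells below every E17.5 cell. As a share of mRNA counts, complex IV rows made up 44.8%, 35% and 32.6% over the stages, complex III 21.5%, 28.3% and 28%, and complex I 33.6%, 36.6% and 39.3%. Without the 4 E17.5 libraries low in germ cell markers, the E17.5 shares of complexes IV, III and I were 48.2%, 21.4% and 30.4%, and mt-Co1 relative to mt-Cytb was 2.24. These count shares hold very little of mt-Co2, mt-Co3 and complex V, whose counts were far below their FPKM. As a share of mRNA FPKM, complex IV made up 51.1%, 35.5% and 35.6%, complex III 13.9%, 13.8% and 13.6%, complex I 25.5%, 21.8% and 24%, and complex V 9.39%, 28.9% and 26.7%. The higher shares of complexes I and III after E17.5 were thus found in the counts and not in these FPKM shares. The FPKM shares include mt-Atp8, at 0.376%, 15.8% and 14.2% of mRNA FPKM and listed at 0 in 21 of 22 E17.5 libraries. The FPKM shares of all complexes therefore depend on that row, and shares without it were not computed.

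For mt-Co2, mt-Co3 and the 2 ATP synthase (complex V) subunit genes, the 2 deposited tables disagreed on the level. In counts, mt-Co2 was at 22.05, 18.64 and 5.475 CPM, mt-Co3 at 28.49, 21.2 and 8.007 CPM, and mt-Atp6 at 9.656, 12.01 and 4.9 CPM. mt-Atp8 and mt-Nd4l stayed below 1 CPM at every stage and were not measured by the rule. In FPKM, mt-Co2 was at 2642, 3451 and 1711, mt-Co3 at 3254, 3708 and 1934, and mt-Atp6 at 2183, 4616 and 2193, of the same order as mt-Cytb (3375, 4869 and 2379). For the 9 mRNA and rRNA rows not wholly inside the stretch, mean FPKM divided by CPM per kilobase lay between 0.826 and 3.07 at every stage. For mt-Nd4 and mt-Co1, which lie partly inside the stretch, this quotient was 2.364 and 1.386 at P2.5. Inside the stretch it was 126.6 at P2.5 for mt-Co2, 137.1 for mt-Co3 and 261.8 for mt-Atp6. There it was 448.8 for mt-Nd4l and 14075 for mt-Atp8, but 0.79 for mt-Nd3. All but mt-Nd3 of the 6 rows inside the stretch thus had far fewer counts than their FPKM. These 6 rows made up 0.681%, 0.869% and 0.96% of the mRNA counts, but 35.7%, 50.9% and 50% of the mRNA FPKM. The nuclear copies themselves held 225.4, 193.4 and 65.09 CPM in all.

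Directions inside the stretch also depended on the table. Between E17.5 and P2.5 the log2 ratio of mt-Co2 was -0.24 in counts and 0.39 in FPKM, and that of mt-Co3 was -0.42 and 0.19. mt-Atp6 was at 0.30 in counts and 1.08 in FPKM. Between P2.5 and P6.5 both tables put all 3 lower, at -1.68 and -1.01 for mt-Co2, -1.35 and -0.94 for mt-Co3, and -1.21 and -1.07 for mt-Atp6. In FPKM, mt-Atp8 was listed at 0 in 21 of 22 E17.5 libraries and in none of the P2.5 or P6.5 libraries, where its means were 5567 and 2473. mt-Nd3 was listed at 0 in 12 of 22 E17.5, 10.7% of P2.5 and 6 of 47 P6.5 libraries, although it had a count in every cell. FPKM values of overlapping or copied short genes are therefore given as deposited, with no ratio for mt-Atp8.

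**Figure D4:**
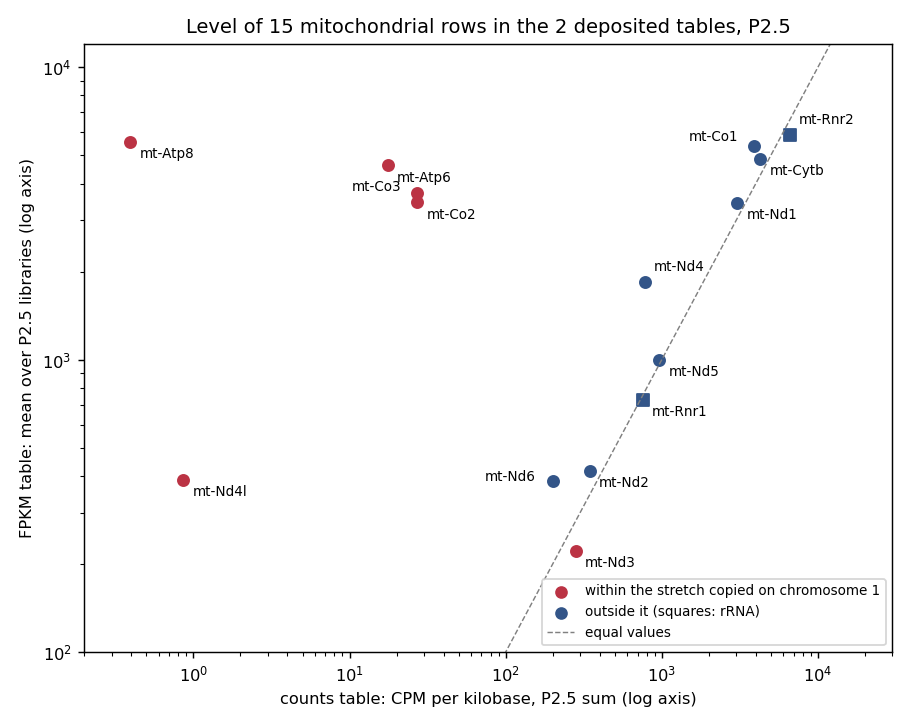
Mean deposited FPKM of the 13 mRNA and 2 rRNA rows over P2.5 libraries against their CPM per kilobase in the P2.5 sum, both on log axes. For the 9 rows not wholly inside the copied stretch, FPKM is 0.889 to 2.36-fold the CPM per kilobase (mt-Nd4 and mt-Co1 lie partly inside). Of the 6 rows inside the stretch, 5 lie far to the left of the line of equal values, with mt-Nd3 as the exception.

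Of the rRNA rows, mt-Rnr2 held most counts. It was at 21755 CPM at E17.5 (13865 to 66630, median 22581), 10415 CPM at P2.5 (1849 to 40691, median 10101) and 8428 CPM at P6.5 (3027 to 13750, median 8561), and 80.9% of P2.5 cells lay below every E17.5 cell. mt-Rnr1 was at 1256, 719.9 and 522.2 CPM, with 58% of P2.5 cells below every E17.5 cell. Per kilobase the 16S row exceeded the 12S row at each stage (13752 against 1315 CPM per kilobase at E17.5), and the ratio of their counts was 17.32, 14.47 and 16.14. The log2 ratios of P2.5 over E17.5 were -1.06 for mt-Rnr2 and -0.80 for mt-Rnr1, and those of P6.5 over P2.5 were -0.31 and -0.46. In FPKM the P2.5 over E17.5 ratios were -1.05 and -0.57. Within P2.5, the count ratio of mt-Rnr2 to mt-Rnr1 had block medians of 11.2 to 25.3, which is wider than the difference between stages.

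Among tRNA rows, 13 of 22 had any count and 9 had none (mt-Td, mt-Tg, mt-Th, mt-Ti, mt-Tk, mt-Ts1, mt-Ts2, mt-Tw and mt-Ty). The 11 rows other than mt-Tp and mt-Tq had no more than 64 counts each over all libraries. In FPKM, all 22 tRNA rows were listed at 0. Of the 22 tRNA rows, only mt-Tp and mt-Tq were measured by the rule above, and why the others were not was not tested.

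mt-Tp, the proline tRNA, was counted in every library. It was at 40.58 CPM at E17.5 (6.877 to 166.2, median 36.55), 33.35 CPM at P2.5 (cells 7.586 to 148.4, median 30.73) and 8.512 CPM at P6.5 (2.954 to 23.19, median 7.745). Every P6.5 cell lay below the P2.5 median, and 22 of 47 lay below every P2.5 cell. The plain log2 ratios were -0.28 and -1.97, and with 0.5 CPM added the second was -1.91. Per spike-in count it was at 0.003388, 0.01475 and 0.02872, a 1.948-fold step from P2.5 to P6.5 where all gene counts were 7.632-fold higher. Relative to mt-Cytb, its neighbour beyond mt-Tt, it was at 0.01138, 0.00683 and 0.003232. Over P2.5 cells its CPM was correlated with that of mt-Cytb (Spearman 0.624 over cells that share a stage, library and denominator).

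mt-Tq, the glutamine tRNA, divided the libraries in a way that stage does not. It had a count in all 87 P2.5 libraries in columns 1 to 87 of the count table (at least 1 count, median 22) and in all 47 P6.5 libraries (2 to 64, median 17). It had none in the 230 P2.5 libraries in the columns after them, and none in the 22 E17.5 libraries, which are few. The depths were alike, with medians of 6404311 and 6042155 counts for the P2.5 libraries with and without mt-Tq. After thinning each library to 1000000 counts, mt-Tq was still seen in 77 of 87 P2.5 libraries that had it and in 39 of 47 P6.5 libraries. The 11 other rare tRNA rows had 0 counts in every library without mt-Tq. mt-Tp showed no such division, at 30.87 CPM with and 34.46 CPM without.

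The near-identical library pairs show that the division can run between libraries that are otherwise close. In 12 of the 24 pairs, 1 library had a mt-Tq count and the other had none. Over all genes these pairs differed by a median chi-square of 0.862 to 1.03. Both libraries of the other 12 pairs had mt-Tq, and there the median chi-square was 0.686 to 0.882. Within the 12 split pairs, mt-Nd6 was higher in the library with mt-Tq in all 12 (log2 0.314 to 0.562). In the same library mt-Co1 was lower in all 12 (-0.185 to -0.113), and the rRNA to mRNA ratio was 1.04 to 1.09-fold higher. It also had higher mt-Nd2 and mt-Rnr1, and lower mt-Nd4 and mt-Nd5, in all 12. In the 12 pairs with mt-Tq in both, the log2 difference in mt-Nd6 lay between -0.173 and 0.269. The difference in mt-Tq between E17.5 and P2.5 therefore cannot be told apart from this division of libraries, and no fold is given for it.

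Because E17.5 libraries all lack mt-Tq and P6.5 libraries all have it, the stage results were repeated with P2.5 libraries alike in mt-Tq. Being alike in this row does not show that libraries were alike in other ways. P2.5 without mt-Tq over E17.5 gave log2 ratios of 0.08 for mRNA and -1.21 for rRNA rows, and mt-Nd6 was at 1.77. P6.5 over P2.5 with mt-Tq gave -0.82 for mRNA, -0.63 for rRNA and -1.67 for tRNA rows. The rRNA ratio thus stayed below 0 in both steps when libraries alike in mt-Tq were compared. The second ratio was further from 0 than over all P2.5 libraries (-0.32). The rRNA to mRNA ratio was 0.8333 in P2.5 libraries with mt-Tq and 0.5675 in those without, a wider gap than within the split pairs. All P2.5 libraries of blocks 13 to 15 lack mt-Tq, so the division and the column blocks overlap.

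**Figure D5:**
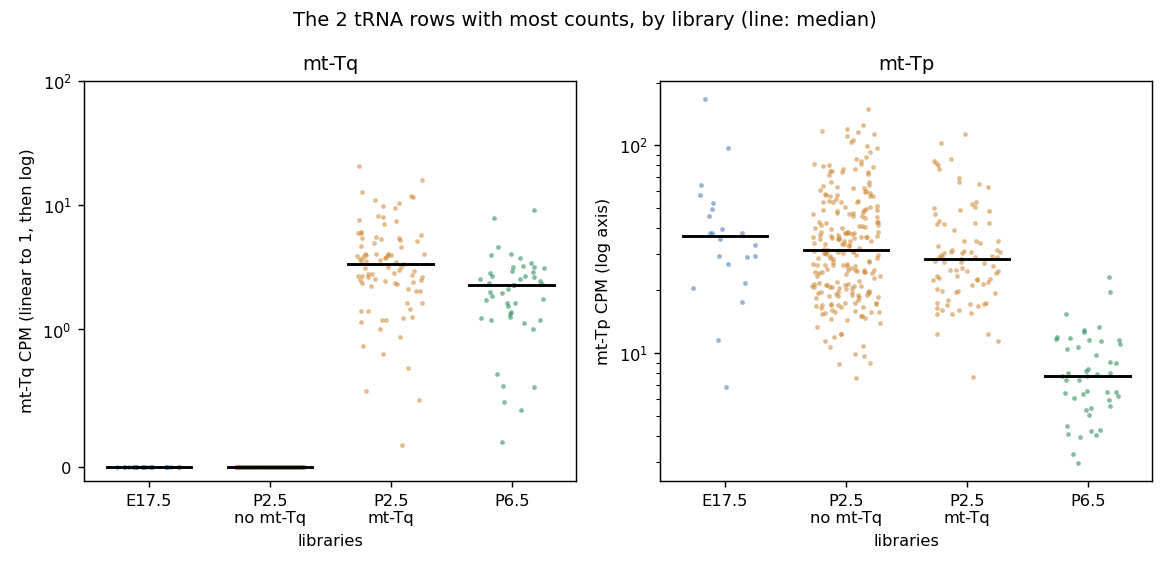
CPM of mt-Tq (left, linear up to 1 and then log) and mt-Tp (right, log axis) per library, with P2.5 libraries split by whether mt-Tq has a count, and the median as a line. mt-Tq is at 0 in all E17.5 and in 230 P2.5 libraries, while mt-Tp has counts in every group and is lowest at P6.5 (median 7.745 CPM).

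Within P2.5, the mitochondrial share of a cell ranged from 1.165% to 7.667% (median 2.751%, quartiles 2.26% and 3.491%), and 5.46% of cells exceeded 5%. The rRNA rows spanned 21.1-fold over these cells in CPM and the mRNA rows 6.38-fold. Per spike-in count the spans were 45.8-fold and 35.4-fold. The 2 classes were only weakly related in CPM, with a Spearman correlation of 0.257 over the P2.5 cells (Pearson 0.299). It was 0.585 over the libraries with mt-Tq and 0.203 over those without. Within column blocks the correlation was higher, with a median of 0.632 over the 16 blocks (range -0.137 to 0.774, above 0 in 15). The correlations by mt-Tq and by block are over libraries, with near-identical pairs not summed. Over all P2.5 libraries taken so, the correlation was 0.238. All these points share library depth and the same denominator, and no test was made.

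The 2 rRNA rows followed each other over P2.5 cells (Spearman 0.844), whereas mt-Nd1 and mt-Rnr2, neighbours on the heavy-strand transcript, did so less (0.275). Among the 7 mRNA rows not wholly inside the copied stretch the pairwise correlations ran from 0.246 to 0.834 with a median of 0.663. Between those rows and the rRNA rows they ran from -0.0936 to 0.628 with a median of 0.379. Cells with more gene counts per spike-in count had a somewhat lower mRNA share (Spearman -0.372) and rRNA share (-0.181), and the mRNA share was also lower in deeper libraries (-0.419), so depth and RNA content moved together with it.

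At E17.5, library 4 stood apart with 14.2% mitochondrial counts (67676 CPM mRNA and 73781 CPM rRNA) at the lowest depth of its stage, 1016746 counts. Its rRNA to mRNA ratio was 1.09, inside the range of the others. Library 7 had the highest ratio, 2.9, and the lowest mRNA level per spike-in count, 0.161. Leaving out any library moved the rRNA ratio of P2.5 over E17.5 only between -1.08 and -1.02.

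Nuclear genes that maintain and express mitochondrial DNA were followed as a list of 58 genes, of which 57 were measured between E17.5 and P2.5. Of these, 14 were at least 2-fold higher in P2.5 and 6 at least 2-fold lower (backgrounds 22.6% and 32.4%), with a median log2 ratio of 0.16 against -0.26 for all genes. Without the 4 E17.5 libraries low in germ cell markers the counts were 14 and 4. Between P2.5 and P6.5, 0 of 56 were 2-fold higher and 6 were 2-fold lower (backgrounds 6.90% and 9.30%), with a median of -0.23 against -0.18. The highest and lowest genes of a group are named below among those with at least 5 CPM in either stage of the step. The ratios of P2.5 over E17.5 were also taken without the 4 E17.5 libraries and with no CPM added. They went from 2.89 to 3.69 for Hsd17b10, from 1.12 to 2.05 for Rexo2 and from 0.12 to 1.42 for Top1mt. The sign changed for Tefm (0.16 to -0.15), Tbrg4 (-0.55 to 0.44), Ppargc1b (-0.83 to 2.02) and Tfb1m (0.07 to -0.3). It also changed for Mgme1, Dhx30, Mterf2 and Tfb2m.

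Among genes for upkeep of the DNA, Tfam, which packages mitochondrial DNA and starts its transcription, went from 58.12 CPM in E17.5 to 112.9 in P2.5 (log2 0.95), with a log2 ratio of -0.01 for P6.5 over P2.5. Primpol, a primase that restarts stalled replication, had the lowest ratio of that group in the first step (-2.69, 90.53 to 13.63 CPM), and Top1mt, the mitochondrial topoisomerase, in the second (-1.18, 7.136 to 2.869 CPM). Polg, the catalytic subunit of the mitochondrial DNA polymerase, had the highest ratio there in the second step (0.08). The mitochondrial RNA polymerase gene Polrmt was at 125.4, 98.15 and 79.68 CPM (-0.35 and -0.30), and the elongation factor gene Tefm at 34.94, 39.09 and 19 CPM (0.16 and -1.02), so neither was higher at P6.5 than at P2.5 in CPM.

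Of the 13 genes for rRNA modification and ribosome assembly, 5 were 2-fold higher and 1 was 2-fold lower in P2.5 than in E17.5, beside 22.6% and 32.4% of all measured genes. Rpusd3, a pseudouridine synthase family member, had the highest ratio (2.22, 1.076 to 6.866 CPM), and Nsun4, which methylates the 12S rRNA and works with Mterf4 in ribosome assembly, the lowest (-1.52, 76.73 to 26.39 CPM). In the second step Mterf4 was highest (0.55) and the 16S methyltransferase gene Mrm3 lowest (-1.05). Among processing genes, Hsd17b10, a subunit of the mitochondrial RNase P that frees tRNAs, had the highest ratio in the first step (2.88, from 41.63 CPM at E17.5, with 265.5 CPM at P6.5), and Ptcd3, which binds the small ribosomal subunit, the lowest (-1.29). Lrpprc, which stabilises mitochondrial mRNAs, had log2 ratios of -0.10 and -0.23, with 202.3 CPM at P2.5 and 172.5 CPM at P6.5. In the second step Ptcd1 was highest (0.74) and Tbrg4 (FASTKD4) lowest (-0.75).

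Among decay genes, Rexo2, an exonuclease that degrades short RNA fragments, was highest in the first step (1.12) and Grsf1, an RNA granule protein, lowest (-0.46). Supv3l1, the helicase of the mitochondrial degradosome, was highest in the second step (0.41), and Pnpt1, its exoribonuclease partner, lowest (-1.23, 62.18 to 26.15 CPM). Among nuclear regulators, Nrf1, a transcription factor for nuclear genes of mitochondrial function, was highest of those with at least 5 CPM in the first step (1.67, 52.2 to 166.9 CPM) and in the second (-0.01), while Yy1 was lowest of those in the first (-0.86) and the coactivator gene Pprc1 in the second (-1.08). Below that limit, the coactivator gene Ppargc1a was at -2.63 in the first step (4.729 to 0.3469 CPM) and Ppargc1b at 0.93 in the second (1.681 to 3.659 CPM). Without the 4 E17.5 libraries low in germ cell markers, Ppargc1a was at only 0.6975 CPM at E17.5. With no CPM added, its first ratio then went from -3.77 to -1.01.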

How the data were processed

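The authors deposited a count table and an FPKM table of the same 386 libraries (22 at E17.5, 317 at P2.5 and 47 at P6.5; after summing near-identical pairs, 293 cells at P2.5). Per the submitters' processing notes, STAR 2.7.10b, HTSeq 0.13.5 and RSEM 1.3.3 were used with mm10; the sources used here do not say which tool made which table, how strand was set or how reads with several matches were treated. Deposited counts were whole numbers. The deposited FPKM values were averaged over libraries. The 92 spike-in rows were kept out of library sizes. Counts were summed per stage and given as CPM and per spike-in count. Ratios have exact conditional Poisson 95% intervals for counting error only. Near-identical library pairs were mutual nearest neighbours with a median chi-square below 1.5 over genes with at least 20 counts. TMM factors came from edgeR 4.0.16. Nuclear copies were found with BLAST 2.17.0 on GENCODE M21 transcripts (at least 85% identity over 60 bases). The calculation of ratios and intervals was run on simulated Poisson counts. These hold no spread between cells or column blocks, so they check the calculation only. The members and lists were chosen with earlier results of these data known. All mt- rows were described; from the nuclear list, Tfam, Polrmt and Lrpprc were named, and per sublist and step the highest and the lowest ratio among genes with at least 5 CPM. Protein sequences were not used here. The libraries' mt-Tq counts and the column blocks were looked at after seeing the data.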

Additional observations from a re-analysis of the deposited data

How the results depend on the processing

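All values here are log2 ratios of a class between stages unless named otherwise, and they moved by more than counting error in most settings because that error is very small. No paired analysis was possible because no result comes from a test and the replicate numbers only name cells. For P2.5 over E17.5, the mRNA rows were at 2.46 per spike-in count, 0.421 in TMM scaling, 0.28 in median-of-ratios scaling, 0.0403 with library sizes that leave out mitochondrial rows, 0.542 in deposited FPKM, 0.00515 as the mean and -0.0107 as the median over cells, 0.0543 without the copied stretch, 0.0345 without the 4 E17.5 libraries low in germ cell markers, -0.00567 and 0.11 with E17.5 libraries 1 to 10 and 11 to 22 alone, and 0.018 to 0.0897 with any library left out. The rRNA rows were, in that order of settings, at 1.36 per spike-in count (the opposite direction, which the scale itself gives), -0.684, -0.824, -1.06, -1 in FPKM, -1.12 and -1.16 as mean and median over cells, -1.02 without the 4 libraries, -0.988 and -1.09 with either E17.5 set, and -1.08 to -1.02 with any library left out. The tRNA rows were at 2.18 per spike-in count, 0.138 in TMM scaling, -0.00236 in median-of-ratios scaling, -0.125 and -0.153 as mean and median, -0.174 without the 4 libraries, 0.0343 and -0.406 with either E17.5 set, and -0.277 to -0.0705 with any library left out. The mRNA value of 0.542 in FPKM includes mt-Atp8, which was listed at 0 in 21 of 22 E17.5 libraries. That value was not computed without this row.

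For P6.5 over P2.5, the mRNA rows were at 2.06 per spike-in count, -0.637 in TMM scaling, -0.536 in median-of-ratios scaling, -0.887 without mitochondrial rows in the library size, -1.02 in FPKM, -0.993 and -0.816 as mean and median over cells, and -0.891 to -0.855 with any library left out. The rRNA rows were at 2.62 per spike-in count, -0.0794 and 0.021 in the 2 scalings, -0.33 without mitochondrial rows, -0.324 in FPKM, -0.359 and -0.243 as mean and median, and -0.332 to -0.297 with any library left out. The tRNA rows were at 1.28 per spike-in count (the opposite direction), -1.41 and -1.31 in the 2 scalings, and -1.84 as the mean over cells; leaving out any library gave -1.69 to -1.62.

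Settings added after seeing the data used P2.5 libraries with or without mt-Tq, or blocks of P2.5 columns. With P2.5 libraries without mt-Tq, P2.5 over E17.5 was 0.0813 for mRNA and -1.21 for rRNA rows, and with those that have it 0.000957 and -0.737. P6.5 over P2.5 was -0.816 for mRNA and -0.626 for rRNA rows with mt-Tq, and -0.897 and -0.152 without. Over the 16 blocks of P2.5 columns, P2.5 over E17.5 ran from -0.16 to 0.331 (mRNA), -2.2 to -0.415 (rRNA) and -0.977 to 0.203 (tRNA), and P6.5 over P2.5 from -1.15 to -0.656, -0.948 to 0.836 and -2.08 to -0.898. Of the rows 2-fold different, per spike-in count 15 were higher and 0 lower in each step, and in TMM scaling 0 were lower in the first step and 3 in the second. Where no other reason is given, the cause was not tested.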
